A study of Mus musculus with 191 samples.

Results

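Potassium channel genes were followed in 3 brain regions of mice exposed to chronic intermittent ethanol (CIE) vapor. They were taken as every gene whose symbol in the array annotation starts with Kcn, which gave 52 genes on 66 probes, of 10004 symbols on 13798 probes that carry 1 gene symbol. By role, as read from the symbol, 19 genes code for pore subunits of voltage-gated channels and 9 for their accessory subunits. Inward rectifiers account for 8, tandem-pore (K2P) channels for 9 and a regulator for 1, Kcnrg. The other 6 form the group of calcium- or sodium-activated channels, with the subunit that goes with one of them. Kcnu1 was placed in this group by its symbol alone. The amygdala (AMY), nucleus accumbens (NAC) and prefrontal cortex (PFC) of male C57BL/6J mice aged 10 to 12 weeks were each measured on 48 Illumina bead arrays. Treated mice went through 4 cycles of ethanol vapor, each of 4 days with 16 h of vapor a day, and control mice breathed air. Every mouse, controls included, received pyrazole at 1 mmol/kg, an inhibitor of alcohol dehydrogenase, which treated mice got together with ethanol at 1.6 g/kg and control mice together with saline. Tissue was collected 0, 8 or 120 h after the last exposure from 8 treated and 8 control mice a time point, so each region had 6 groups of 8 arrays. The values therefore describe ethanol given with pyrazole against pyrazole alone, in tissue punches that mix all cell types of a region.

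Potassium channels let potassium leave the cell and so set the resting potential, end each action potential and limit how fast a neuron fires. Voltage-gated channels open on depolarization, calcium-activated channels link firing to calcium entry, and inward rectifiers and K2P channels carry current near rest. Accessory subunits change the gating, the surface level or the partners of a pore. Ethanol is known to act directly on some of these channels, among them the large-conductance calcium-activated channel Kcnma1 and the inward rectifiers that G proteins open.

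A probe was kept in a region when its detection p-value, the chance that background gives such a signal, did not exceed 0.05 in over 80% of its 48 arrays. This left 59 channel probes of 47 genes in AMY, 53 probes of 42 genes in NAC and 61 probes of 50 genes in PFC. In all, 41 genes were kept in the 3 regions, 10 in 1 or 2 of them and 1, the K2P channel Kcnk5, in none. NAC lost the most: the K2P channel Kcnk4 was detected on 48 of 48 arrays in AMY and in PFC but on 6 in NAC, and Kcnj9, a G protein-gated inward rectifier, on 38 in AMY, 11 in NAC and 48 in PFC. Its relative Kcnj6 was detected on 48, 30 and 48 arrays, and the small-conductance calcium-activated channel Kcnn2 on 42, 25 and 48. The silent subunit Kcng4 was detected on 44 of 48 arrays in PFC, against 2 in AMY and 12 in NAC. Kcne4, an accessory subunit (32, 29 and 43 arrays in AMY, NAC and PFC), and the K2P channel Kcnk10 (30, 13 and 40) were kept in PFC alone, and Kcnk12 (48, 27 and 48) and Kcnrg (47, 35 and 44) in AMY and PFC. Kcna5, a voltage-gated channel, went the other way, with 47, 48 and 35 arrays. A probe below the filter was not measured well enough to compare, which is not the same as an absent channel.

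The region labels were checked against marker genes. Striatal markers were highest in NAC for 9 of 9 measured genes, cortical markers highest in PFC for 9 of 9, and amygdala markers highest in AMY for 7 of 13. The median intensity of an array lay between 90.3 and 126 over all brain arrays, and between 12953 and 14833 of 25697 probes were detected on each. Arrays have no read depth, so their number and the distance of a probe from background limit the precision. The column headers carry animal numbers that recur in the 3 regions, so results of the regions at 1 time point come from the same mice.

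Between regions, the channel probes of control mice differed more often than probes in general. Genes with several probes, among them Kcnab1, Kcnc4 and Kcnmb4, count more than once in the shares below. On the 51 channel probes kept in all regions, a difference was called when its adjusted p was 0.05 or lower and its size at least 0.5 on the log2 scale. NAC and PFC differed for 16 probes, 31.4%, where 12.9% of all probes were called. AMY and PFC differed for 11, 21.6%, against 7.55% of all probes, and AMY and NAC for 8, 15.7%, against 5.79%. Most called differences were lower levels outside the cortex, 12 of the 16 for NAC and 10 of the 11 for AMY. Of the 51 channel probes 23.5% were called lower in NAC than in PFC, where 7.64% of all probes were. In AMY 19.6% were called lower than in PFC, where 4.61% of all probes were. Calls over all probes were also mostly lower, 911 of 1532 for NAC and 550 of 900 for AMY. The median absolute difference of the channel probes was 0.29 between NAC and PFC, 0.22 between AMY and PFC and 0.18 between AMY and NAC, against 0.16, 0.12 and 0.10 over all probes. These comparisons rest on 24 control arrays a region, normalized together over the regions, so the levels differ slightly from those normalized within a region in the later paragraphs.

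Of the channel genes higher in NAC, Kcnab1, an accessory subunit (Kvβ1) that speeds the inactivation of voltage-gated channels, differed the most. Its lead probe, the kept probe of highest mean signal, lay between 10.71 and 11.31 in NAC with a median of 11.15, between 9.54 and 9.99 in AMY with a median of 9.78, and between 9.11 and 9.82 in PFC with a median of 9.55, all as log2 intensities of 24 arrays. All NAC arrays stood above all arrays of the other regions. NAC exceeded PFC by 1.60 ± 0.04 (SE) and AMY was below NAC by 1.35 ± 0.04, and both other Kcnab1 probes gave calls in the same directions. Kcnip2, a calcium-binding subunit (KChIP2) of the A-type channel Kcnd2, followed with 8.10 to 8.69 in NAC, 7.31 to 7.78 in AMY and 7.14 to 7.46 in PFC, a difference of 1.10 ± 0.03 between NAC and PFC. The ranges of this lead probe in NAC and in the other regions did not overlap. Another Kcnip2 probe kept in all regions gave no call between any of them, so the difference rests on the lead probe.

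Kcnj4, a strong inward rectifier (Kir2.3), and Kcnk2, a K2P channel opened by stretch and lipids (TREK-1), were also highest in NAC. Kcnj4 had medians of 9.55 in NAC, 9.13 in PFC and 8.52 in AMY, and AMY was 1.01 ± 0.04 below NAC. Kcnk2 had medians of 9.40, 8.89 and 8.50 on its lead probe, with AMY 0.89 ± 0.04 below NAC. The other Kcnk2 probe was kept in all regions and gave no call between any of them. For the lead probes of Kcnj4 and Kcnk2 the AMY and NAC arrays did not overlap, and Kcnj4 in AMY was also 0.62 ± 0.04 below PFC.

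Of the channels lower in NAC, Kcnc4, a fast voltage-gated channel (Kv3.4), differed the most. Its lead probe lay between 10.31 and 10.74 in PFC, between 10.17 and 10.48 in AMY and between 8.37 and 9.73 in NAC, with medians of 10.60, 10.33 and 8.80. NAC was below PFC by 1.70 ± 0.06 and AMY above NAC by 1.45 ± 0.06. The SD of Kcnc4 was 0.36 in NAC, where it was 0.10 in AMY and 0.11 in PFC, so the NAC arrays differed among themselves far more than those of the other regions. The other Kcnc4 probe was 0.59 ± 0.04 lower in NAC than in PFC.

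The large-conductance calcium-activated channel was a cortical pair. Kcnma1, its pore, had a median of 9.01 in PFC, 8.41 in AMY and 7.96 in NAC, and Kcnmb4, the β4 subunit found in neurons, had medians of 9.89, 8.71 and 8.73. Kcnma1 was 1.04 ± 0.04 lower in NAC than in PFC and 0.61 ± 0.04 lower in AMY. Kcnmb4 was 1.12 ± 0.04 lower in NAC and 1.18 ± 0.04 lower in AMY, with both other probes called in the same direction. The PFC arrays of the lead Kcnmb4 probe, from 9.62 upwards, did not overlap those of either other region, which reached 9.14.

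Of the voltage-gated pore subunits, PFC held the higher signal for several. Kcnv1, a silent subunit that forms channels only with other subunits, lay between 8.55 and 9.04 in PFC and between 7.46 and 8.11 in NAC, and was 1.04 ± 0.04 lower in NAC and 1.05 ± 0.04 lower in AMY. Kcnf1, another silent subunit, was 0.91 ± 0.04 lower in NAC than in PFC. Kcna1 and Kcna2, the axonal delayed rectifiers Kv1.1 and Kv1.2, were lower in AMY than in PFC by 0.64 ± 0.08 and 0.58 ± 0.05, and their ranges overlapped. Kcnk13, a K2P channel (THIK-1) known from microglia, was the one channel gene higher in AMY than in PFC by at least the 0.5 needed for a call, with 7.55 to 7.92 against 7.08 to 7.51 and a difference of 0.54 ± 0.03.

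**Figure D1:**
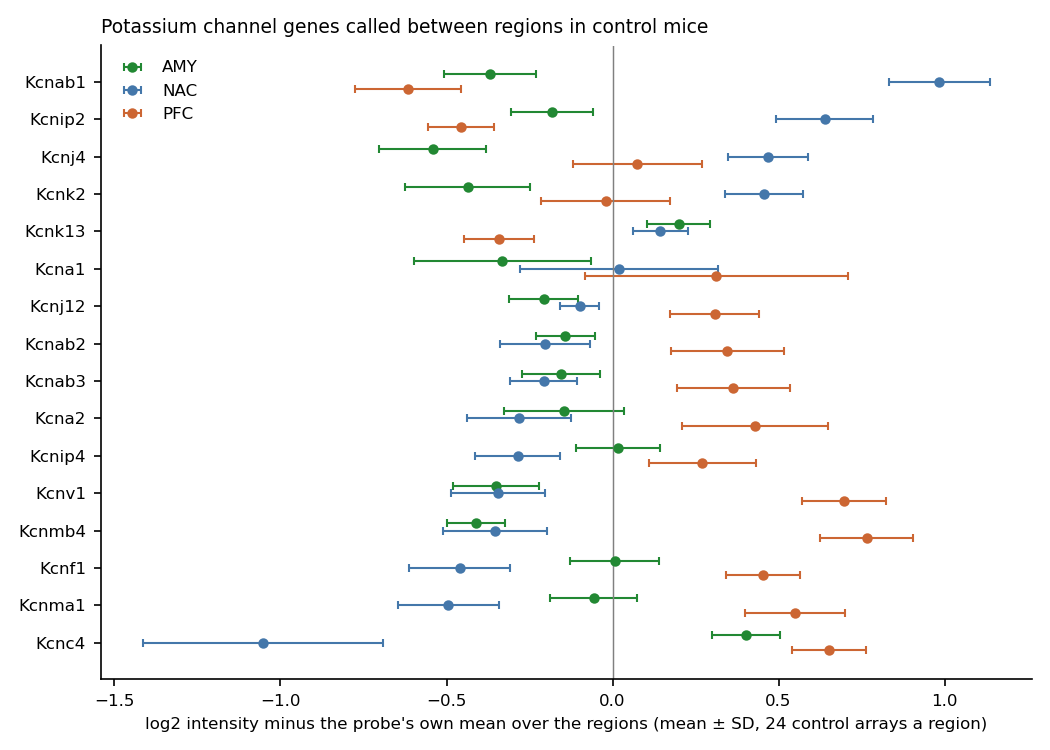
Log2 intensity of the 16 channel genes called between regions in control mice, each as its lead probe minus that probe's own mean over the regions (points, mean of 24 arrays; bars, SD). Kcnab1 and Kcnip2 stand out to the right in NAC and Kcnc4 to the left, while PFC is to the right for Kcnmb4, Kcnv1 and Kcnma1.

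The brightest lead probes were named by role to show where the signal stood, since brightness cannot be set between probes as an amount of RNA. Over the controls these were Kcnf1, Kcnc4 and the fast channel Kcnc1 among the voltage-gated pores, and Kcnab2, Kcnab1 and Kcnip3 among the accessory subunits. In the group named calcium- or sodium-activated, where Kcnu1 stands by its symbol alone, they were Kcnmb4, Kcnma1 and Kcnu1. Among the inward rectifiers they were Kcnj4, Kcnj12 and Kcnj16, and among the K2P channels Kcnk1, Kcnk2 and Kcnk13. Kcnj12 was 0.51 ± 0.03 lower in AMY than in PFC, with ranges of 6.89 to 7.26 and 7.29 to 7.82. Kcnab2, the cytoplasmic Kvβ2 subunit of axonal channels, was 0.55 ± 0.03 lower in NAC than in PFC.

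CIE vapor changed few channel genes, and by little on the log2 scale used here, which has no background correction. With an adjusted p of 0.05 or lower as the threshold, in AMY 1 of 59 channel probes passed at 0 h, 1.69%, where 3.88% of all probes did, and 1 of 59 at 8 h, where 2.88% of all probes did. In NAC 7 of 53 passed at 0 h, 13.2%, against 7.3% of all probes, and 2 of 53 at 8 h, 3.77%, against 6.94%. In PFC 0 of 61 passed at 0 h, where 1.48% of all probes did and 7 channel probes had an unadjusted p of 0.05 or lower as 17.8% of all probes had, and 1 of 61 at 8 h, where 5.72% did. At 120 h no channel probe passed in any region, and 0% of all probes did. The median absolute difference of the channel probes was between 0.02 and 0.05 in the 9 comparisons, as it was over all probes.

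**Figure D2:**
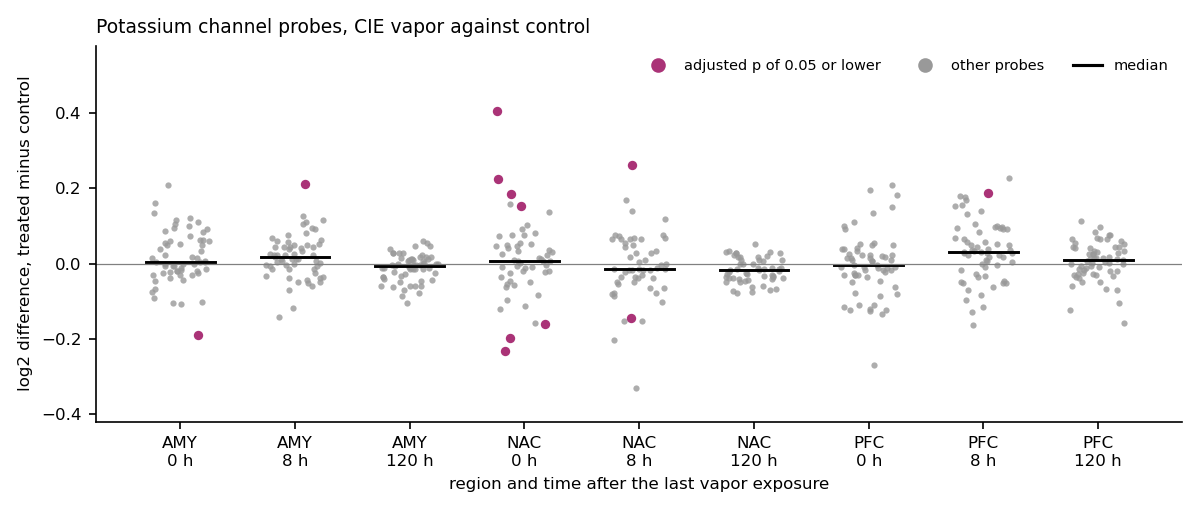
Log2 difference between treated and control mice (vertical axis, 8 against 8 arrays) for each kept channel probe in each region and time point; purple points have an adjusted p of 0.05 or lower, grey points do not, and the black line is the median. The points past the threshold lie mostly in NAC at 0 h, and the spread is narrowest at 120 h.

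Kcnk6 was the one channel gene that passed in all 3 regions, each time at 8 h. It codes for TWIK-2, a K2P channel that is active in lysosomes and in immune cells. In NAC its lead probe (ILMN_1258376) lay between 7.05 and 7.24 in controls, with a median of 7.15, and between 7.31 and 7.55 in treated mice, with a median of 7.39. Every treated mouse was above every control. The rise was 0.26 ± 0.04 (SE) on the log2 scale (adjusted p = 0.000499). In AMY controls spanned 7.15 to 7.38 and treated mice 7.34 to 7.58, with medians of 7.25 and 7.48 and 6 of 8 treated mice above all controls, a rise of 0.21 ± 0.04 (adjusted p = 0.00813). In PFC controls spanned 7.41 to 7.68 and treated mice 7.55 to 7.88, with medians of 7.54 and 7.75, a rise of 0.19 ± 0.05 (adjusted p = 0.0326).

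The second Kcnk6 probe had the same sign and did not pass, at 0.11 ± 0.03 for AMY (adjusted p = 0.076), 0.06 ± 0.03 for NAC and 0.06 ± 0.04 for PFC. At 0 h the lead probe of AMY differed by 0.13 ± 0.05, that of NAC by 0.08 ± 0.04 and that of PFC by 0.03 ± 0.04, and at 120 h by 0.05 ± 0.03, -0.01 ± 0.03 and 0.03 ± 0.04, none past the threshold. In NAC the treatment effect at 8 h exceeded that at 0 h by 0.19 ± 0.05 (adjusted p = 0.0486), and that at 120 h minus that at 8 h was -0.27 ± 0.05 (adjusted p = 0.00539).

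Other lists moved at the same time. Of 12 measured glucocorticoid-induced genes, 9 rose at 8 h in each of the 3 regions. In NAC their summed level ran from 12.71 to 13.01 in controls and from 13.18 to 13.64 in treated mice. Of 13 measured microglia markers, 3 rose and 1 fell in AMY at 8 h, 4 rose and 1 fell in NAC, and 1 fell in PFC. With their score as a covariate the Kcnk6 rise was 0.26 in NAC (adjusted p = 0.000526), 0.18 in AMY (adjusted p = 0.0175) and 0.19 in PFC (adjusted p = 0.0382). The summed microglia level ran from 11.65 to 11.97 in NAC controls and from 11.70 to 12.04 in treated mice. Of 11 measured endothelial and mural markers 1 rose in each region at 8 h and 1 fell in NAC and in PFC. The 1 red blood cell gene measured in AMY and in NAC was lower in treated mice, by differences of -1.09 and -1.14, and both measured in PFC fell, with a median of -0.75. The part of the glucocorticoid, vessel and blood genes in the Kcnk6 change was not tested. In PFC the value was 0.07 with oligodendrocyte and thalamus marker scores as covariates (adjusted p = 0.551).

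Kcnk13, the microglial K2P channel that sets the resting potential of these cells, was lower in treated mice at 0 h in AMY and NAC. In AMY its probe (ILMN_2593787) lay between 7.52 and 7.87 in controls and between 7.40 and 7.64 in treated mice, with medians of 7.72 and 7.52, and 4 treated mice were below all controls. The difference was -0.19 ± 0.05 (adjusted p = 0.0244). In NAC controls lay between 7.51 and 7.76 and treated mice between 7.16 and 7.54, with medians of 7.55 and 7.38, 7 of 8 treated mice below all controls and a difference of -0.20 ± 0.05 (adjusted p = 0.0226). In PFC the treated mice were spread from 7.09 to 7.82, around controls from 7.22 to 7.44, and the difference was 0.05 ± 0.09. By 120 h the NAC effect had moved by 0.23 ± 0.06 against that at 0 h (adjusted p = 0.0459).

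Of the 13 microglia markers 1 was lower at 0 h in AMY and 1 in NAC, with list medians of -0.07 in both, against medians of 0.00 over all probes. The marker was Fcrls each time, and it was also lower past the threshold in PFC at 0 h, with -0.45 ± 0.09. The summed microglia level ran from 11.70 to 12.19 in AMY controls and from 11.62 to 11.97 in treated mice, and in NAC from 11.60 to 12.04 and from 11.49 to 11.91. With the microglia score as a covariate the Kcnk13 difference was -0.17 in AMY (adjusted p = 0.0761) and -0.20 in NAC (adjusted p = 0.0287). With oligodendrocyte and thalamus scores it was -0.13 in AMY (adjusted p = 0.0653) and -0.0028 in NAC (adjusted p = 0.993). In these punches fewer cells of a type and less RNA per cell cannot be told apart.

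The RefSeq promoters (build GRCm38.p6, from 250 bases before to 50 after the start) of 41 of the 52 genes were at hand, and that of Kcnk13 is shown because its fall recurred in 2 regions. It lies on the plus strand at chr12:99964249-99964548, with CG dinucleotides in capitals.
Kcnk13: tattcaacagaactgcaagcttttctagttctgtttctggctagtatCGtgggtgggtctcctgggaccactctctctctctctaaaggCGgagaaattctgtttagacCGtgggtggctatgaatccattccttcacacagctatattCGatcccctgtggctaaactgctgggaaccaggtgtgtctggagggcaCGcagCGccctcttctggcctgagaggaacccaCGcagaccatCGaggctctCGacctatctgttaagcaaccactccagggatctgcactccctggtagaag
The window holds 9 CG dinucleotides, against a median of 7 over all promoters. It holds no AGAACA, the half-site of the glucocorticoid receptor, on either strand, which 18.974% of all promoters do and 7 of 60 channel promoters did. The gapped core ACANNNTGT of the full site, which overlaps that half-site, was absent as well, where 6.846% of all promoters have it.

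**Figure D3:**
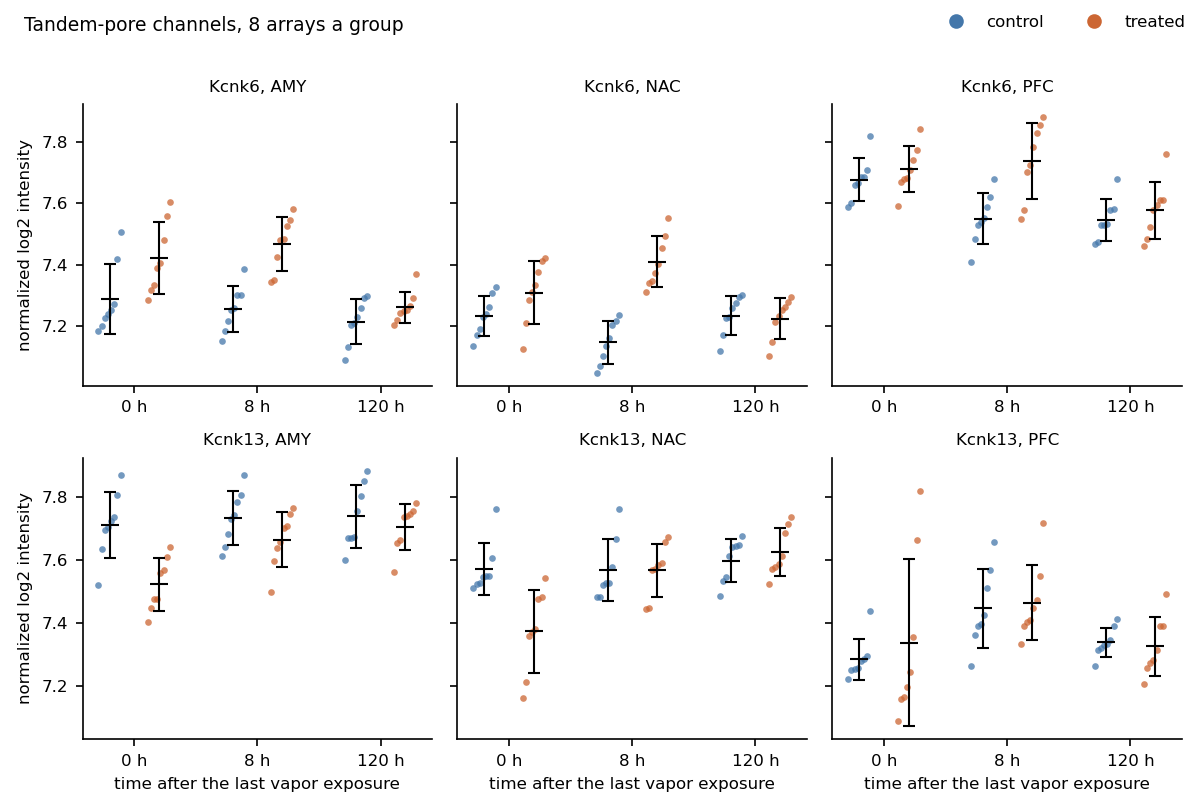
Normalized log2 intensity of Kcnk6 and Kcnk13 (vertical axis) in the 6 groups of each region (points, 1 array each; black bars, mean and SD). Treated mice are above controls for Kcnk6 at 8 h in each region and below them for Kcnk13 at 0 h in AMY and NAC.

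NAC at 0 h was where most channel genes passed, 4 probes higher, where 3.46% of all probes were, and 3 lower, where 3.84% were. Kcnc4 had the largest difference, with 8.25 to 9.13 in controls and 8.70 to 9.19 in treated mice, medians of 8.59 and 9.05 and a rise of 0.41 ± 0.10 (adjusted p = 0.0197). Its treated range lay within the upper part of the control range and just past it. The other Kcnc4 probe differed by 0.16 ± 0.05 (adjusted p = 0.0605). Kcnip1, a calcium-binding subunit (KChIP1) found in interneurons, lay between 7.15 and 7.38 in controls and between 7.30 and 7.74 in treated mice, with 7 of 8 treated mice above all controls and a rise of 0.22 ± 0.05 (adjusted p = 0.0188).

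Kcnh2, the channel ERG1 that damps repeated firing, passed with both probes. The lead probe lay between 7.46 and 7.73 in controls and between 7.62 and 7.93 in treated mice, a rise of 0.19 ± 0.04 (adjusted p = 0.0141), and the other probe between 7.42 and 7.64 and between 7.60 and 7.78, a rise of 0.15 ± 0.04 (adjusted p = 0.014). In each case 6 of 8 treated mice were above all controls. In PFC at 0 h the lead probe had a difference of like size, 0.20 ± 0.06, that did not pass (adjusted p = 0.0785).

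The 3 lower probes were those of Kcnk13, Kcnj4 and Kcnv1. Kcnj4, the inward rectifier that was highest in NAC, lay between 9.32 and 9.55 in controls and between 8.92 and 9.42 in treated mice, with medians of 9.42 and 9.17 and a difference of -0.23 ± 0.06 (adjusted p = 0.0324). Kcnv1 lay between 7.53 and 7.74 and between 7.31 and 7.68, a difference of -0.16 ± 0.04 (adjusted p = 0.0286). The ranges of treated and control mice overlapped for each of the 7 probes.

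Marker genes of oligodendrocytes and from a thalamus list moved in the same comparison. All 12 measured oligodendrocyte markers were lower in value in treated NAC at 0 h, and 5 of them fell past the threshold. Their summed level ran from 14.15 to 14.72 in controls and from 14.17 to 14.58 in treated mice. Of 8 measured thalamus markers 4 rose and 1 fell, with a summed level from 10.91 to 11.06 in controls and from 10.94 to 11.43 in treated mice. With the scores of both lists as covariates, 0 of the 7 channel probes passed by limma. Kcnk13 then stood at -0.0028 and the Kcnh2 probes at 0.04 and 0.06, while Kcnc4 stood at 0.49 (adjusted p = 0.471), Kcnip1 at 0.30 (adjusted p = 0.457), Kcnj4 at -0.16 and Kcnv1 at -0.13. With that fit no channel probe of the 53 was called at 0 h in NAC, so these 7 calls rest on a fit without the marker scores. Kcnc4 and Kcnip1 were larger in size with the scores and still did not pass, so the count also reflects a less precise fit. The share of all probes called with the scores is not given here, so the count cannot be read as particular to channel genes.

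**Figure D4:**
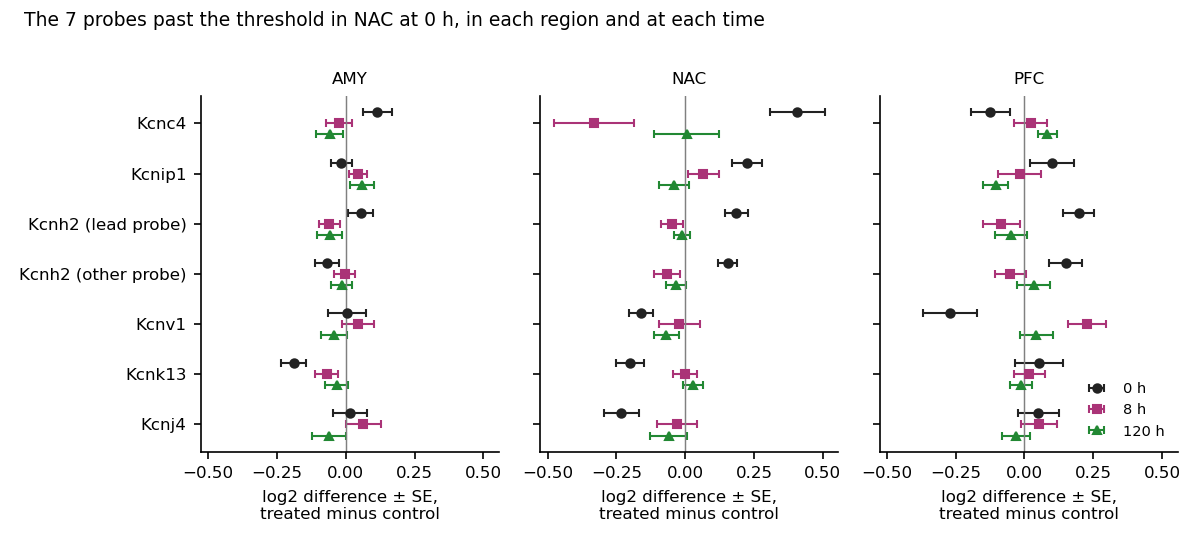
Log2 difference between treated and control mice (horizontal axis; points, estimate; bars, SE) for the 7 probes that passed in NAC at 0 h, in each region at 0, 8 and 120 h. In NAC the 0 h points stand away from 0 on both sides, from -0.23 for Kcnj4 to 0.41 for Kcnc4, and Kcnc4 is at -0.33 at 8 h.

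The treatment effects in NAC differed between 0 and 8 h for 6 of 53 channel probes, 11.3%, where 2.46% of all probes did. Both Kcnc4 probes were among them. The lead probe went from 0.41 at 0 h to -0.33 ± 0.15 at 8 h, a change of -0.74 ± 0.19 (adjusted p = 0.0254), and the other probe changed by -0.31 ± 0.08 (adjusted p = 0.0238). At 8 h Kcnc4 lay between 8.62 and 9.59 in controls and between 8.23 and 9.30 in treated mice, and neither time point left the groups apart. The effects on both Kcnh2 probes changed by -0.23 ± 0.05 (adjusted p = 0.0122) and -0.22 ± 0.06 (adjusted p = 0.0247). A probe of Kcnab1 moved the other way, from -0.16 ± 0.05 to 0.17 ± 0.07, a change of 0.33 ± 0.09 (adjusted p = 0.0341), and Kcnk6 was the sixth.

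Between 0 and 120 h the effect in NAC differed for Kcnk13 and for the lead Kcnh2 probe, by -0.20 ± 0.05 (adjusted p = 0.0389), which is 2 of 53 probes, 3.77%, against 1.99% of all probes. With the oligodendrocyte and thalamus scores as covariates 0 channel probes differed between 0 and 8 h in NAC by limma and 0 between 0 and 120 h. The share of all probes in these fits with scores is not given here, so these counts cannot be read as particular to channel genes. In NAC 1 of 53 differed between 8 and 120 h, Kcnk6, where 1.25% of all probes did. In PFC none differed between 0 and 120 h or between 8 and 120 h, where 0.623% and 0.834% did. In AMY no channel probe differed in effect between time points, where 0.524% of all probes did between 0 and 8 h, 1.46% between 0 and 120 h and 0.445% between 8 and 120 h.

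At 8 h in NAC the other channel gene that passed was Kcnab2, with 10.50 to 10.75 in controls and 10.36 to 10.56 in treated mice and a difference of -0.15 ± 0.04 (adjusted p = 0.0286). 6 of 8 treated mice were below all controls. In the same comparison 5 of 12 oligodendrocyte markers rose, and with the oligodendrocyte and thalamus scores as covariates Kcnab2 stood at -0.11 (adjusted p = 0.118), as it did with arrays scaled to a common median (adjusted p = 0.136).

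In PFC Kcnv1 turned from the lower to the higher side. At 0 h controls lay from 8.73 upwards with a median of 8.93 and treated mice from 8.15 upwards with a median of 8.62, a difference of -0.27 ± 0.10 that did not pass (adjusted p = 0.157). At 8 h controls lay between 8.85 and 9.18 and treated mice between 8.81 and 9.43, a difference of 0.23 ± 0.07 that did not pass either (adjusted p = 0.06). The change between them was 0.50 ± 0.12 (adjusted p = 0.0079), the only one of 61 channel probes to pass, 1.64%, where 3.83% of all probes did. With the oligodendrocyte and thalamus scores as covariates the change was 0.33 and did not pass (adjusted p = 0.239).

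One treated array of PFC at 8 h stood apart from its group, with a correlation of 0.9912 to the mean of the others where the next lowest of the 16 arrays had 0.9942. Without it 7 of 61 channel probes passed instead of 1, and 10.1% of all probes instead of 5.72%. A treated array of PFC at 0 h had a lower correlation still, 0.9881 against a next lowest of 0.9937, and without it no channel probe passed at 0 h by limma, as with it, and 1.65% of all probes did. At 8 h without its array, Kcnk6 rose by 0.21 ± 0.05 (adjusted p = 0.0103), Kcnv1 by 0.28 ± 0.05 (adjusted p = 0.00237) and 2 probes of Kcnmb4 by 0.23 ± 0.05 and 0.19 ± 0.05. Kcnk1, a weakly inward-rectifying K2P channel (TWIK-1), rose by 0.19 ± 0.04 and Kcnu1, known as a sperm channel, by 0.11 ± 0.03. The lead Kcnc1 probe was lower by a difference of -0.21 ± 0.04, and the other Kcnc1 probe did not pass. With all arrays the lead Kcnmb4 probe stood at 0.18 ± 0.07 and the other at 0.17 ± 0.05, Kcnk1 at 0.16 ± 0.05 and Kcnu1 at 0.08 ± 0.04. The lead Kcnc1 probe then stood at -0.16 ± 0.06 and the other Kcnc1 probe at 0.03 ± 0.03, of opposite sign.

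Where no channel probe passed, the 3 with the smallest p are given. In PFC at 0 h these were Kcnh2, Kcnj16 at -0.11 ± 0.04 (adjusted p = 0.142) and Kcnv1. At 120 h they were Kcnc1 at -0.10 ± 0.05, Kcnab2 at -0.08 ± 0.05 and Kcna3 at 0.05 ± 0.03 in AMY, and Kcnmb4 at -0.07 ± 0.04, Kcnip3 at -0.07 ± 0.04 and Kcnip4 at -0.06 ± 0.04 in NAC. In PFC they were Kcnc4 at 0.08 ± 0.04, Kcnip1 at -0.10 ± 0.04 and Kcnab3 at -0.12 ± 0.05, and at 120 h an unadjusted p of 0.05 or lower was reached by 1 channel probe in AMY, 0 in NAC and 3 in PFC, and by 3.05%, 4.57% and 3.41% of all probes.

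The regions rarely differed in the effect of treatment. At 0 h Kcnc4 responded differently in NAC and PFC, by 0.54 ± 0.13 (adjusted p = 0.0257), 1 of 51 channel probes, 1.96%, where 0.604% of all probes did. In PFC its treated mice lay between 10.34 and 10.83 and its controls between 10.45 and 10.86. A probe of Kcnc1 that is not its lead probe differed between AMY and NAC by -0.19 ± 0.05 (adjusted p = 0.0487), again 1 of 51, where 0.243% of all probes did. The lead Kcnc1 probe had the opposite sign there, at 0.09 ± 0.08 (adjusted p = 0.821). With the oligodendrocyte and thalamus scores as covariates the Kcnc4 difference was 0.48 (adjusted p = 0.0593) and that of the Kcnc1 probe -0.16 (adjusted p = 0.285). No channel probe differed between AMY and PFC at 0 h, where 0.336% of all probes did, and none between any regions at 8 h, where 0.361%, 0.0419% and 0% of all probes did.

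The control mice themselves changed with time. Groups of different time points were separate mice, killed at different hours and days after the last session, and the study's methods state that arrays were balanced by group over the BeadChips. Which arrays shared a chip is not given in the sources used here, so a part of the chips in the changes over time was not tested. Kcne1l, a single-pass accessory subunit (KCNE5) that inhibits voltage-gated channels, was the clearest case. In NAC it lay between 6.92 and 7.08 at 0 h, between 6.91 and 7.10 at 8 h and between 7.43 and 7.62 at 120 h, and all mice of 120 h were above all earlier ones. The rise from 0 to 120 h was 0.47 ± 0.03 (adjusted p = 4.01e-10). In AMY the rise was 0.34 ± 0.04 (adjusted p = 6.09e-07), from 6.95 to 7.09 at 0 h to 7.19 to 7.51 at 120 h, and in PFC 0.46 ± 0.07 (adjusted p = 3.94e-05), from 6.90 to 7.08 to 7.15 to 7.76. In both, the groups of 0 and 120 h did not overlap.

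Treated mice had the same course of Kcne1l. Their AMY values ran from 6.81 to 7.08 at 0 h and from 7.20 to 7.46 at 120 h. In NAC they went from 6.89 to 7.05 at 0 h to 7.35 to 7.66 at 120 h, again without overlap, and in PFC from 6.88 to 7.14 to 7.05 to 7.43. Kcne1l did not pass between treated and control mice at any time with all arrays, and in AMY at 8 h it passed without the array of lowest correlation, at -0.15 ± 0.04 (adjusted p = 0.0351). The rise remained past the threshold in each region with the marker scores as covariates, at 0.35 in AMY, 0.48 in NAC and 0.40 in PFC.

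The promoter of Kcne1l is shown because this shift was shared by the regions and by both treatments. It lies on the minus strand at chrX:142306149-142306448, written 5′ to 3′ of the gene, with CG dinucleotides in capitals.
Kcne1l: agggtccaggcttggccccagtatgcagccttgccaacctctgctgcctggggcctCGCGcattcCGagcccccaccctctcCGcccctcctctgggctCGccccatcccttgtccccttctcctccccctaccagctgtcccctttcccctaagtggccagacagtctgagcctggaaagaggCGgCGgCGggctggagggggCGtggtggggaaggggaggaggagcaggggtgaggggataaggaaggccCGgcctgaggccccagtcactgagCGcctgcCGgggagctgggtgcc
It is 69.7% G or C with 12 CG dinucleotides. The E-box of the clock factors, CACGTG, is not in this window on either strand, where 7.15% of all promoters and 5 of 60 channel promoters have it, and neither is the cyclic AMP response element TGACGTCA, in 1.79% of all promoters and 0 of the 60. These are descriptions of letters and not of binding.

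Kcna1 fell with time in the controls. From 0 to 120 h it went from a median of 8.99 to 8.41 in NAC, a difference of -0.47 ± 0.10 (adjusted p = 0.00656), and from 9.33 to 9.06 in PFC, a difference of -0.51 ± 0.16 (adjusted p = 0.0184). From 0 to 8 h it differed by -0.33 ± 0.11 in AMY (adjusted p = 0.0463) and by -0.38 ± 0.10 in NAC (adjusted p = 0.0174). Its groups overlapped each time, and mice of 1 group spread widely, over 9.12 to 10.02 in PFC at 0 h. With the marker scores as covariates the NAC difference at 120 h was -0.49 and passed (adjusted p = 0.0239), and that in PFC was -0.47 and did not (adjusted p = 0.124). At 8 h the values were then -0.19 in AMY (adjusted p = 0.441) and -0.37 in NAC (adjusted p = 0.239).

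**Figure D5:**
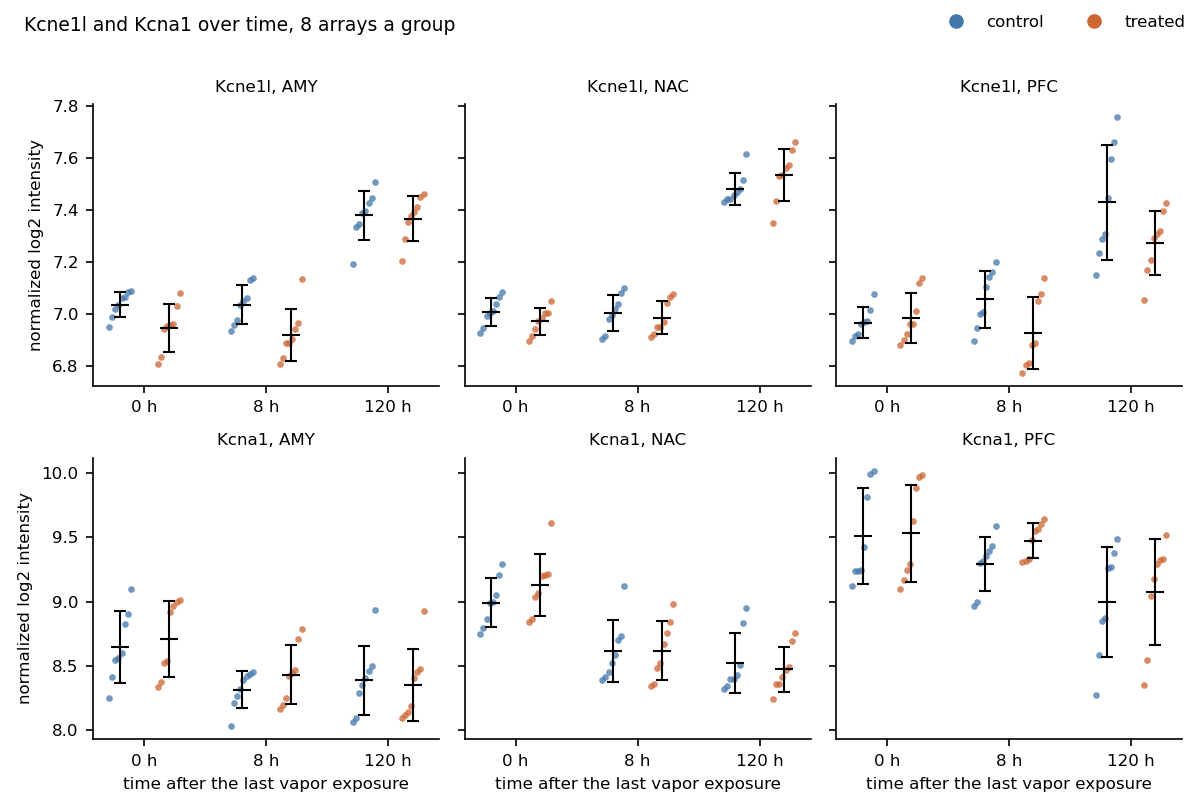
Normalized log2 intensity of Kcne1l and Kcna1 (vertical axis) at 0, 8 and 120 h in each region (points, 1 array each; black bars, mean and SD; blue, control; orange, treated). Kcne1l is higher at 120 h in control and treated mice of all 3 regions, and Kcna1 has wide groups that overlap.

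NAC controls differed most between 0 and 8 h, with 12 of 53 channel probes past the threshold, 22.6%, where 11% of all probes were. Kcnip4 (KChIP4), a calcium-binding subunit that slows A-type channels, fell from 7.71 to 7.91 at 0 h to 7.43 to 7.67 at 8 h without overlap, a difference of -0.22 ± 0.04 (adjusted p = 0.00116), and stood at 7.65 to 7.92 at 120 h. The 3 Kcnab1 probes fell as well, with differences of -0.20, -0.22 and -0.27, and so did Kcnh3, with -0.15 ± 0.04. Kcnc4 rose by 0.48 ± 0.12 (adjusted p = 0.0149), from a median of 8.59 to 9.11, with a rise of 0.19 ± 0.06 on its other probe. Kcnj16, an inward-rectifier subunit (Kir5.1) of glia, rose by 0.18 ± 0.04 and Kcnab3 by 0.14 ± 0.04. The treated level of Kcnc4 at 8 h was compared with this higher control level.

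In the same controls 8 of 12 oligodendrocyte markers fell and 4 of 8 thalamus markers rose, and 4 of 9 striatal markers fell. The summed oligodendrocyte level ran from 14.15 to 14.72 at 0 h and from 14.04 to 14.63 at 8 h, and the summed thalamus level from 10.91 to 11.06 and from 11.01 to 11.72. With the oligodendrocyte and thalamus scores as covariates, 0 of these 12 channel calls were left by limma, and 0.166% of all probes were called. Kcna1 then stood at -0.37, Kcnip4 at -0.17 (adjusted p = 0.145), the Kcnab1 probes between -0.19 and -0.10 and the lead Kcnc4 probe at 0.32 (adjusted p = 0.417). From 8 to 120 h 7 of 53 channel probes passed, 13.2%, against 9.29% of all probes. With the scores 6 of 53 passed, and the share of all probes with them is not given here. Without the scores Kcnc4 was lower over this interval by a difference of -0.52 ± 0.12 and the 3 Kcnab1 probes rose by 0.16 to 0.23. From 0 to 120 h 3 of 53 passed, 5.66%, against 5.74%: Kcne1l, Kcna1 and Kcns2, a silent subunit, at -0.15 ± 0.04.

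In AMY controls 8 of 59 channel probes passed from 0 to 8 h, 13.6%, where 9.98% of all probes did. Kcnv1 rose by 0.23 ± 0.04 (adjusted p = 0.00042), from 7.48 to 7.66 at 0 h to 7.62 to 7.86 at 8 h, and remained at 7.67 to 7.89 at 120 h. Kcnh3, a voltage-gated channel of the forebrain, rose by 0.22 ± 0.05 and Kcnu1 by 0.12 ± 0.03. Kcnk2 fell from a median of 8.67 to 8.31, a difference of -0.33 ± 0.06 (adjusted p = 0.002), and Kcna1, described above, and Kcnab3 (-0.19 ± 0.04) also fell. One Kcnh2 probe (-0.12 ± 0.03) and the second Kcnk6 probe (-0.09 ± 0.03) were lower too. Over 7 processing settings, the main one included, Kcnv1, Kcnk2 and Kcnab3 passed in all 7. The Kcnh3 rise ran from 0.09 to 0.33 and that of Kcnu1 from 0.05 to 0.20, each passing in 6. The Kcnh2 probe ran from -0.19 to -0.08 and passed in 6, and the Kcnk6 probe from -0.32 to -0.03 and passed in 4. From 0 to 120 h 4 of 59 passed, 6.78%, against 11.6% of all probes, with Kcne1l and Kcnv1 higher and a Kcnh2 probe and Kcnj16 lower. From 8 to 120 h 4 passed, 6.78%, against 11%: Kcne1l, Kcna5, Kcnj4 and a Kcnmb4 probe, all higher.

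PFC controls changed mainly by 120 h. From 0 to 8 h 1 of 61 channel probes passed, 1.64%, where 3.72% of all probes did, and this was Kcnk13, higher by 0.16 ± 0.04. From 0 to 120 h 17 of 61 passed, 27.9%, against 24.6% of all probes, so the channel genes stood close to the background. Kcnj4 rose from 9.06 to 9.30 at 0 h to 9.40 to 9.61 at 120 h without overlap, by 0.33 ± 0.06 (adjusted p = 0.00025), and Kcnab3 from 7.35 to 7.65 to 7.66 to 7.90, by 0.25 ± 0.07. Kcnk2 rose by 0.35 ± 0.06, and both Kcnh2 probes rose, by 0.16 and 0.26. Kcna2 fell from 8.58 to 8.99 at 0 h to 8.13 to 8.57 at 120 h without overlap, a difference of -0.40 ± 0.07 (adjusted p = 0.000174). Kcnd2, the pore of the A-type current (Kv4.2), differed by -0.38 ± 0.09, Kcnab2 by -0.27 ± 0.05 and Kcnma1 by -0.20 ± 0.06. Over 7 processing settings, the main one included, Kcnj4, Kcnk2, Kcna2, Kcnd2 and Kcnab2 passed in all 7. Kcnab3 ran from 0.08 to 0.44, the Kcnh2 probe with the rise of 0.26 from 0.14 to 0.45 and Kcnma1 from -0.30 to -0.18. Each of these passed in 6.

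From 8 to 120 h 12 of 61 passed in PFC, 19.7%, against 23.3% of all probes, with Kcne1l, Kcnj4, Kcnmb4, Kcnk2 and a Kcnh2 probe at the top and Kcnd2, Kcnab2, Kcna2, Kcnh3 and Kcnip2 at the bottom. In these PFC controls 8 channel probes rose from 0 to 120 h, where 12% of all probes did, and 9 fell, where 12.5% did. With arrays scaled to a common median in place of quantile normalization 28 channel probes rose, where 30.2% of all probes did, and 13 fell, where 25.6% did, so the number of PFC changes over time depends on the scaling for channel genes and for all genes. Kcne1l, Kcnj4 and Kcnk2 stayed higher and Kcna2, Kcnd2 and Kcnab2 lower past the threshold under both.

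Genes whose proteins bind, cluster, regulate or work beside potassium channels were read from a list of 42, of which 30 were measured in AMY and NAC and 31 in PFC. The entries Hcn3 and Hcn4 had identical values in the controls of NAC and of PFC, so 1 probe was counted for both there. Of the 30 measured in NAC, 2 rose and 2 fell at 0 h, where 3.46% of all probes were called higher and 3.84% lower. Dpp6, a membrane partner of Kcnd2, rose by 0.28 ± 0.05 (adjusted p = 0.0029) and Atp1b1, a sodium pump subunit, by 0.13 ± 0.04. Ank3, the ankyrin that anchors channels at the axon initial segment, was lower by a difference of -0.18 ± 0.05 and Lgi1, a secreted regulator of axonal channels, by -0.13 ± 0.04. Dpp6 also rose in PFC at 0 h, by 0.17 ± 0.03 (adjusted p = 0.0118). Gnb5, a G protein β subunit, was lower at 0 h in AMY (-0.20 ± 0.05) and PFC (-0.23 ± 0.05) and higher at 8 h in NAC (0.13 ± 0.04) and PFC (0.12 ± 0.03). Dlg4, the scaffold PSD-95, and Adam22, a receptor of Lgi1, rose in PFC at 8 h by 0.22 ± 0.05 and 0.16 ± 0.04. Of all probes 3.88% were called in AMY and 1.48% in PFC at 0 h, and 6.94% in NAC and 5.72% in PFC at 8 h. No partner passed in AMY at 8 h, where 2.88% of all probes did. The list's median was between -0.02 and 0.01 at 0 and 8 h, against -0.01 to 0.00 over all probes.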

How the data were processed

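RNA from punches of AMY, NAC and PFC was hybridized to bead arrays (Illumina MouseRef-8 v2), each holding a single region of a single mouse. The NAC punch is given as 2.0 mm in the labels and as 1.25 mm in the study's methods. Per the file headers, the deposited non-normalized tables hold a summarized intensity and a detection p-value for each probe, and all values used here come from them. The authors also deposited log2 values processed with lumi, which served as an alternative. Their version is not given in the sources used here, and neither is the assignment of arrays to BeadChips. Liver samples were not analysed here.

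Probes whose detection p-value did not exceed 0.05 in over 80% of a region's 48 arrays were kept. Intensities were log2 transformed and quantile normalized within a region, or over all regions for comparisons between them, and tested with limma 3.58.1 in R 4.3.3, with Benjamini-Hochberg adjustment over all kept probes. Each time point was fitted on its own for treated against control mice. For time in controls, and for treatment effects compared over time or region, the groups concerned shared 1 fit. A score is the mean over a marker list of log2 values standardized per probe, and a summed level is the log2 of the list's summed signal. The steps were tested on simulated data first. Animal numbers in the headers recur between regions, and arrays of 1 number deviated together only weakly, with median correlations from 0.108 to 0.203. Probes were named by their array annotation. Named are all channel genes that passed for treatment, the 3 of smallest p where none did, up to 5 in each direction that passed over time in controls or between regions, the 3 brightest of each role and those kept in some regions only. The members and lists were chosen with earlier results of these data known.

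Alternatives were scaling to the median, background correction with an offset of 16, no detection filter, the processed values with and without a replicate block, all groups in 1 fit, marker scores as covariates, and leaving out the array of lowest correlation with its group. The scores for microglia, the blocks and the mouse number as a random block were chosen after seeing the data.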

Additional observations from a re-analysis of the deposited data

Results flagged for a closer look

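In 6 of 119 groups of 8 arrays tested, 1 control array stood apart from the rest by Dixon's criterion, and chance alone gives about 1 group in 20. Kcnk13 had a highest control of 7.76 in NAC at 0 h (next 7.61) and of 7.44 in PFC at 0 h (next 7.30). Kcnj16 had a lowest control of 7.21 in AMY at 0 h (next 7.31), and Kcna5 one of 6.55 in AMY at 8 h (next 6.68). Kcna1 had a highest control of 9.12 in NAC at 8 h (next 8.74), and Kcne1l one of 7.62 in NAC at 120 h (next 7.52).

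Treatment effects differed between time points or regions for 12 values by limma. In NAC the effect at 8 h minus that at 0 h was -0.74 and -0.31 for the Kcnc4 probes, -0.23 and -0.22 for the Kcnh2 probes, 0.33 for a Kcnab1 probe and 0.19 for Kcnk6. The effect at 120 h minus that at 0 h was -0.20 for Kcnh2 and 0.23 for Kcnk13, and that at 120 h minus that at 8 h was -0.27 for Kcnk6. In PFC the effect at 8 h minus that at 0 h was 0.50 for Kcnv1. At 0 h the effect in NAC minus that in PFC was 0.54 for Kcnc4, and the effect in AMY minus that in NAC was -0.19 for a Kcnc1 probe.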

How the results depend on the processing

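None of the called probe values recomputed under the alternatives (12 for treatment, 57 for controls over time, 10 for effects over time, 22 between regions and 2 for effects between regions) reversed in sign, and causes were not tested. Their sizes depended on the setting. In NAC the Kcnk6 rise at 8 h ran from 0.17 to 0.50 and the Kcnk13 difference at 0 h from -0.34 to -0.0028. The Kcne1l rise in NAC controls from 0 to 120 h ran from 0.29 to 0.93. For treated against control mice, counts of channel probes past the threshold were 1 in AMY at 0 h, 1 in AMY at 8 h, 7 in NAC at 0 h, 2 in NAC at 8 h, 0 in PFC at 0 h and 1 in PFC at 8 h. In AMY at 0 h background correction, the processed values and leaving out the array of lowest correlation each gave 2, all groups in 1 fit gave 3, and either set of marker scores gave 0. In AMY at 8 h the first 3 of these and the joint fit each gave 2. In NAC at 8 h median scaling, background correction and the joint fit each gave 1, and in PFC at 0 h the processed values, the joint fit and either set of scores each gave 1. In PFC at 8 h no filter gave 0, the processed values 2, the joint fit 4 and leaving out 1 array 7. The share of all probes called is not given here for most of these settings, so the counts cannot be read as particular to channel genes. With oligodendrocyte and thalamus scores the count was 0 in NAC at 0 h and 0 in PFC at 8 h, and 10 of 12 named treatment values no longer passed.

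For controls over time these scores left 4 of 8, 2 of 4 and 1 of 4 in AMY (8 against 0 h, 120 against 0 h, 120 against 8 h), 0 of 12 in NAC at 8 against 0 h, and 0 of 1 and 9 of 17 in PFC at 8 and 120 against 0 h. In AMY at 120 against 8 h median scaling and background correction gave 2 and no filter 1. In PFC median scaling gave 14 at 8 h and 41 at 120 h, and the processed values gave 2 at 8 h. The share of all probes at 8 h is not given here for either setting. For effects over time, the scores gave 0 of 6 at 8 h and 0 of 2 at 120 h in NAC and 1 in place of 0 in PFC at 120 h, median scaling gave 0 in NAC at 120 h, and the processed values gave 4 and 1 in PFC. Between regions background correction gave 27, 18 and 19 calls in place of 16, 11 and 8, where 25.3%, 16.1% and 11.9% of all probes were called, and a difference of at least 1 gave 8, 2 and 4, where 3.04%, 1.4% and 1.32% were. For effects between NAC and PFC at 0 h background correction gave 2, and between AMY and NAC median scaling and the scores gave 0.

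With the processed values and a replicate block, 4 probes passed in NAC at 0 h, 2 in AMY controls at 120 against 8 h, 6 in NAC controls at 120 against 0 h, and 4 and 1 for effects in PFC at 8 and 120 h. Same-numbered treated and control arrays correlated from -0.336 to 0.572, and not every sample correlated best with its own. Whether arrays of 1 replicate number share a batch was not tested. With the mouse number as a block, effects between NAC and PFC gave 2 at 0 h and 1 at 8 h. A BeadChip block was not run, since the headers do not give the chips.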
